A study of Mus musculus with 15 samples.

Results

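The LIF, JAK-STAT3 and PIM genes examined here are the 10 mouse genes Lifr, Il6st, Jak1, Jak2, Stat3, Socs2, Socs3, Pim1, Pim2 and Pim3, among 55536 genes in the deposited table of raw read counts. They were found by matching the table's Ensembl identifiers to GENCODE M21 symbols, and each symbol matched 1 identifier. All 10 passed the filter on low counts that left 18090 genes to test.

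The table held bulk RNA-seq of 15 samples, 3 in each of 5 groups, from a mouse embryonic stem cell (ESC) model of primordial germ cell formation. All 15 samples came from ESCs with a Stella-eGFP reporter and doxycycline (Dox)-inducible transgenes for Prdm1, Prdm14, Tfap2c and Nanog (4TF), so no group lacked the transgenes. The paper describes several clonal lines with such transgenes and does not say whether 1 clone gave all samples. ESCs were kept in 2i (PD0325901 and CHIR99021) with LIF. Epiblast-like cells (EpiLCs) had spent 48 h in Activin A, bFGF and 1% KSR, a medium for which no LIF was listed. PGC-like cells (PGCLCs) came from EpiLC aggregates in GK15 medium with Dox and no listed cytokines, and were sorted as Stella-eGFP+ at day 2, 4 or 6 (D2PGCLC, D4PGCLC and D6PGCLC). Medium, plating, Dox and sorting thus changed together between ESCs, EpiLCs and PGCLCs, and their parts in any such difference cannot be told apart. The 3 PGCLC groups shared the described medium, Dox and sort and differed in the day of induction. No source used here says that the 3 replicates of a group were separate cultures, so the p-values measure only the spread between these samples, which may be technical.

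LIF binds a receptor made of LIFR and the shared signalling chain gp130, the product of Il6st. The JAK kinases bound to the receptor phosphorylate STAT3, which enters the nucleus and, in mouse ESCs, keeps naive pluripotency genes on. SOCS proteins are induced by STAT factors and shut the receptor complex down, and PIM kinases are STAT-induced serine/threonine kinases that promote survival and growth and need no activating phosphorylation. RNA levels do not report the phosphorylation on which this pathway runs.

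Library totals ran from 22555021 to 42725681 counts. D6PGCLC replicate 1 had counts in 18061 genes, against 21103 to 24343 in the other 14 samples, at a total of 34476646. The EpiLC markers summed to between 1824 and 1966 CPM (TMM-normalized counts scaled to library size) in EpiLCs and to at most 142 elsewhere. Dnmt3b made up most of the EpiLC sum, at a mean of 1558 CPM. The 5 naive ESC markers summed to between 1471 and 1495 CPM in ESCs and between 238 and 264 in EpiLCs. In the PGCLC groups they summed to between 830 and 1131 CPM, but the 5 genes differed. Klf4 had group means of 5.99 to 19.1 CPM there against 173 in ESCs, and Tbx3 of 17.5 to 74.7 against 155. Zfp42 had means of 265 to 330 against 502, and Esrrb of 409 to 620 against 590. Nr0b1 had means of 80.5 to 132 against 60.2. The PGC markers summed to between 890.2 and 1019 CPM in the PGCLC groups and to at most 236 in the others. Among them Dppa3, which is Stella, the gene of the sorted reporter, had means of 452, 448 and 475 CPM on days 2, 4 and 6. This part of the sum is not independent of the sort. From day 4 to day 6 the means of Nanos3 and Dnd1 went from 17.4 and 45.1 CPM to 7.33 and 18.8. Those of Itgb3 and Kit went from 154 and 308 CPM to 133 and 292. The 6 fibroblast markers summed to between 9.87 and 13.6 CPM in EpiLCs and to at most 2.85 elsewhere. The 5 endoderm markers summed to between 9.09 and 16.9 CPM in D6PGCLCs, mostly Gata6 at a mean of 9.25, and to at most 6.36 elsewhere. The 3 mesoderm markers summed to between 15.2 and 16.5 CPM in ESCs, mostly T, and to at most 1.36 elsewhere, and the 3 neural markers to at most 15.8 in any sample, the highest in EpiLCs. Among the blood and endothelial markers, Pecam1, which is not restricted to those cells, had a mean of 120 ± 6.40 CPM in ESCs, of 179 ± 12.9 in EpiLCs and of 356 to 425 in the PGCLC groups (n = 3), while Ptprc, Cdh5 and Runx1 each averaged under 1 CPM in every group. Whether other cells contributed to any difference below was not tested.

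The receptor genes Lifr and Il6st lie at chr15:7090614-7197489 and chr13:112464070-112510086, both on the plus strand of mm10. The kinase genes are Jak1 (chr4:101152367-101265282, minus strand) and Jak2 (chr19:29251828-29313080, plus strand). Stat3 (chr11:100885098-100939540) and Socs3 (chr11:117966079-117970047) are on the minus strand of the same chromosome, and Socs2 is at chr10:95385362-95417180, minus strand. Pim1 (chr17:29490753-29496112), Pim2 (chrX:7878262-7883432) and Pim3 (chr15:88862186-88865726) are on plus strands. Levels are whole-gene sums over exons. Exons of Pim1 overlap those of the antisense gene Gm26885 by 488 bp, Stat3 overlaps Stat5a by 72 bp and Jak1 overlaps Raver2 by 4 bp, each pair on opposite strands. Whether the counting used strand is not given in the sources used here. Gm26885 had between 19 and 70 counts a sample, and Pim1 between 1819 and 7326.

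STAT dimers are known for binding the palindrome TTCNNNGAA, and members of this pathway are among the textbook STAT3 targets. RefSeq promoter windows (GRCm38.p6, 250 bases before to 50 after a start site) were found for 9 of the 10 genes, in 11 windows, since Lifr and Pim1 have a pair each. The entry for Socs2 was missing. The motif, which reads the same on both strands, was present in 1 of the 11 windows, that of Socs3. It is present in 2726 of all 32851 windows (8.3%). The 69 bases around the match are shown because a stretch was to be printed for any member with a match, and the capitals mark the motif. They are printed on the gene's strand (minus) and span chr11:117969482-117969550.
Socs3: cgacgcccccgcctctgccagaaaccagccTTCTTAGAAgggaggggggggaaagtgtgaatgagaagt
The match starts 154 and ends 146 bases before the RefSeq start site. The longest GENCODE transcript of Socs3 starts further downstream, so that the match is 334 to 326 bases before it. That start lies outside the window, and the bases between the window and that start were not searched. No Socs3 exon overlaps the printed stretch, which is intronic in 1 of the 3 annotated transcripts. A match describes the letters of the window and not binding, and the other windows were searched for these letters only.

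The first question the design poses is how the pathway's genes differed between naive ESCs and EpiLCs. A gene was called a differentially expressed gene (DEG) when its adjusted p was under 0.05 and its absolute log2 fold change was above 1, in edgeR's quasi-likelihood test with Benjamini-Hochberg adjustment over the 18090 genes. From ESCs to EpiLCs, 5 of the 10 genes were DEGs, against 26.2% of all genes tested. Lifr, Il6st, Stat3 and Socs3 fell (4 genes, background 11.9%) and Pim2 rose (1 gene, background 14.4%). At the step from EpiLCs to D2PGCLCs, 4 were DEGs, against 25.4%. Here Lifr, Il6st and Pim1 rose (3 genes, background 11.0%) and Pim2 fell (1 gene, background 14.4%). The median log2 fold change over the 10 genes was -0.45 at the first step and 0.61 at the second, while that over all genes tested was -0.01 and 0.00.

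**Figure D1:**
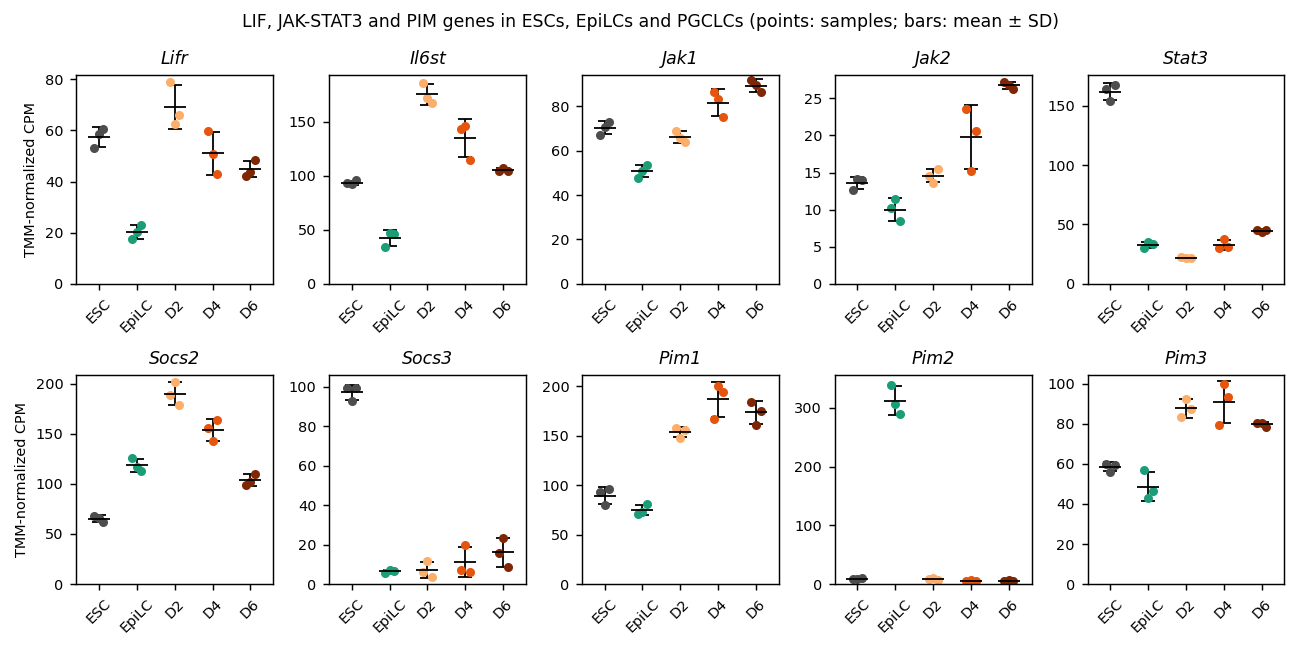
TMM-normalized CPM of each of the 10 genes (vertical axes from 0) in ESCs, EpiLCs and PGCLCs of days 2, 4 and 6, with 1 point per sample and bars for the mean ± SD (n = 3). Stat3 and Socs3 are highest in ESCs, with means of 162 and 97.1 CPM, Pim2 is high in EpiLCs at 313 CPM, and Lifr and Il6st are lowest in EpiLCs.

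Both receptor genes were low in EpiLCs and high in D2PGCLCs. Lifr, the ligand-specific chain, was at 53.0, 58.6 and 60.6 CPM in the 3 ESC samples, at 17.7, 20.4 and 23.2 in EpiLCs, at 78.8, 62.5 and 66.1 in D2PGCLCs, at 59.7, 50.9 and 42.8 in D4PGCLCs and at 42.2, 43.8 and 48.3 in D6PGCLCs. Every EpiLC sample was below every other sample, and every D2PGCLC sample was above every ESC sample. Lifr fell 2.81-fold from ESCs to EpiLCs (log2 fold change -1.49 ± 0.13 SE, adjusted p = 1.33e-08) and rose 3.39-fold from EpiLCs to D2PGCLCs (1.76 ± 0.13, adjusted p = 1.57e-09). In the order D2PGCLC, ESC, D4PGCLC, D6PGCLC, EpiLC, no difference between neighbours among the first 4 groups passed the test (adjusted p from 0.078 to 0.329), and the last gap, between D6PGCLCs and EpiLCs, did (1.13, adjusted p = 4.08e-07). Pairs further apart among the first 4 groups passed the adjusted p, below the fold cutoff. They were D4PGCLC vs D2PGCLC (-0.44, adjusted p = 0.0263), D6PGCLC vs D2PGCLC (-0.63, adjusted p = 0.000577) and D6PGCLC vs ESC (-0.36, adjusted p = 0.0194).

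Il6st, which encodes the gp130 chain shared by the IL-6 family, was at 93.0, 92.1 and 95.7 CPM in ESCs, at 34.0, 46.8 and 46.2 in EpiLCs, at 186, 172 and 168 in D2PGCLCs, at 143, 146 and 114 in D4PGCLCs and at 104, 107 and 104 in D6PGCLCs. No 2 groups overlapped. It fell 2.21-fold from ESCs to EpiLCs (-1.15 ± 0.11, adjusted p = 6.19e-08) and rose 4.14-fold to D2PGCLCs (2.05 ± 0.11, adjusted p = 3.19e-11), where it was 1.87-fold above ESCs (adjusted p = 1.09e-06), short of the fold cutoff. Without EpiLC replicate 1, its lowest sample, the first change was -0.996, just inside the cutoff. From D2PGCLCs it declined on both later days (D4PGCLC vs D2PGCLC, -0.38, adjusted p = 0.0257; D6PGCLC vs D4PGCLC, -0.36, adjusted p = 0.0342), and at day 6 it did not differ from ESCs by the test (0.17, adjusted p = 0.195). Per kb of exon, Il6st exceeded Lifr in every group, with 15.8 ± 0.87 against 6.42 ± 0.79 CPM per kb in D2PGCLCs and 3.81 ± 0.65 against 1.89 ± 0.26 in EpiLCs (SD, n = 3).

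The kinase genes varied less. Jak1, the main kinase of gp130 signalling, was at 67.1, 70.8 and 73.1 CPM in ESCs, at 47.8, 51.0 and 53.6 in EpiLCs, at 69.0, 65.6 and 63.8 in D2PGCLCs, at 86.6, 83.4 and 75.0 in D4PGCLCs and at 91.8, 89.8 and 86.3 in D6PGCLCs. The EpiLC samples were again the lowest, and the largest difference between any 2 groups was 1.76-fold (D6PGCLC vs EpiLC, 0.81 ± 0.08, adjusted p = 5.44e-08). Jak2, a second kinase that binds gp130, was at 12.6, 14.1 and 14.0 CPM in ESCs, at 10.2, 11.4 and 8.40 in EpiLCs, at 14.6, 13.7 and 15.5 in D2PGCLCs, at 23.6, 15.2 and 20.6 in D4PGCLCs and at 27.2, 26.8 and 26.2 in D6PGCLCs. The D6PGCLC samples were above all others and the EpiLC samples below all others. Jak2 rose 2.67-fold from EpiLCs to D6PGCLCs (1.42 ± 0.15, adjusted p = 1.79e-07), although neither later step passed on its own (D4PGCLC vs D2PGCLC, 0.44, adjusted p = 0.0561; D6PGCLC vs D4PGCLC, 0.44, adjusted p = 0.0524). Against ESCs, D6PGCLCs had 1.97-fold as much Jak2 (0.98, adjusted p = 1.71e-05), a value at the fold cutoff that crossed it without ESC replicate 2 or 3 (1.003 and 1.01), without D6PGCLC replicate 3 (1.005) and when only these groups were fitted (1.008). Per kb of exon, Jak1 exceeded Jak2 in every group, at 9.73 ± 0.42 against 2.70 ± 0.17 CPM per kb in ESCs.

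Stat3, the transcription factor of the pathway, was high in ESCs alone. The ESC samples held 165, 154 and 167 CPM, the EpiLC samples 30.5, 35.5 and 33.4, the D2PGCLC samples 22.4, 22.1 and 21.6, the D4PGCLC samples 29.9, 37.6 and 31.1 and the D6PGCLC samples 45.6, 43.5 and 45.5. Each ESC sample was more than 100 CPM above every sample of another group, and the D2PGCLC samples were the lowest. Stat3 fell 4.89-fold from ESCs to EpiLCs (-2.29 ± 0.09, adjusted p = 3.76e-13). It was lower still in D2PGCLCs than in EpiLCs (-0.58 ± 0.09, adjusted p = 2.88e-05), in contrast to the receptor genes, which rose at that step. It then rose 2.03-fold between D2PGCLCs and D6PGCLCs (1.02 ± 0.09, adjusted p = 1.77e-07), in increments of 0.57 (adjusted p = 0.00059) and 0.45 (adjusted p = 0.00319). At day 6 it was still 3.61-fold below ESCs (-1.85 ± 0.09, adjusted p = 7.56e-12). D4PGCLCs and EpiLCs, neighbours in the order of levels, did not differ by the test (-0.01 ± 0.09, adjusted p = 0.93).

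Socs3, the feedback inhibitor that binds gp130 and blocks JAK activity, fell with Stat3. It was at 99.4, 92.5 and 99.4 CPM in ESCs, at 5.62, 6.97 and 6.86 in EpiLCs, at 6.04, 11.8 and 3.78 in D2PGCLCs, at 7.19, 19.9 and 6.24 in D4PGCLCs and at 15.8, 23.3 and 8.84 in D6PGCLCs. All ESC samples were above all others, and the EpiLC, D2PGCLC and D4PGCLC samples overlapped. The sample numbered 2 was the highest of its group on each of the 3 PGCLC days. The fall from ESCs to EpiLCs was 14.9-fold (-3.90 ± 0.42, adjusted p = 3.22e-07), and Socs3 was still 6.05-fold below ESCs in D6PGCLCs (-2.60 ± 0.39, adjusted p = 1.75e-05). Its rise from D2PGCLCs to D6PGCLCs (1.17 ± 0.40, adjusted p = 0.0279), between overlapping groups, was lost without D2PGCLC replicate 1 (adjusted p = 0.0983), D2PGCLC replicate 3 (0.131) or D6PGCLC replicate 2 (0.153), and with DESeq2 (0.067). The rise from EpiLCs to D6PGCLCs (1.31 ± 0.41, adjusted p = 0.00992) was lost without D6PGCLC replicate 2 (0.92, adjusted p = 0.068). The step from D4PGCLCs to D6PGCLCs, which did not pass (0.53, adjusted p = 0.398), passed without D4PGCLC replicate 2 (1.26, adjusted p = 0.0377). Per kb of exon, the Socs3 level went from 33.6 ± 1.37 CPM per kb in ESCs, where it was above Socs2 at 6.84 ± 0.35, to 2.50 ± 1.44 in D2PGCLCs, where Socs2 was at 19.9 ± 1.20 (SD, n = 3). The size of these gaps depends on the length used. Socs2 has 9531 bp of merged exons and a longest transcript of 4242 bp, against 2891 and 2552 bp for Socs3.

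Socs2, best known as the brake on growth hormone and STAT5 signalling, ran the other way. It was at 68.4, 65.4 and 61.8 CPM in ESCs, at 126, 117 and 113 in EpiLCs, at 189, 202 and 179 in D2PGCLCs, at 155, 142 and 164 in D4PGCLCs and at 99.2, 102 and 110.1 in D6PGCLCs. The 5 groups did not overlap, with ESCs lowest and D2PGCLCs highest. The increase from ESCs to EpiLCs was 1.82-fold (0.86 ± 0.08, adjusted p = 3.98e-08) and that to D2PGCLCs a further 1.6-fold (0.68 ± 0.08, adjusted p = 8.13e-07), each below the fold cutoff, and together Socs2 rose 2.91-fold (D2PGCLC vs ESC, 1.54 ± 0.08, adjusted p = 1.57e-11). It then declined by 0.30 (adjusted p = 0.0177) and 0.57 (adjusted p = 0.000165) on the log2 scale at the later steps. Every neighbouring pair in its order of levels passed the adjusted p, the closest being EpiLCs over D6PGCLCs (0.19, adjusted p = 0.043). Over the 15 samples the Pearson correlation of log2(CPM + 1) was 0.94 for Stat3 and Socs3 and -0.94 for Stat3 and Socs2 (Spearman's rho 0.82 and -0.94), as a description of 5 groups of samples that share their group means.

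**Figure D2:**
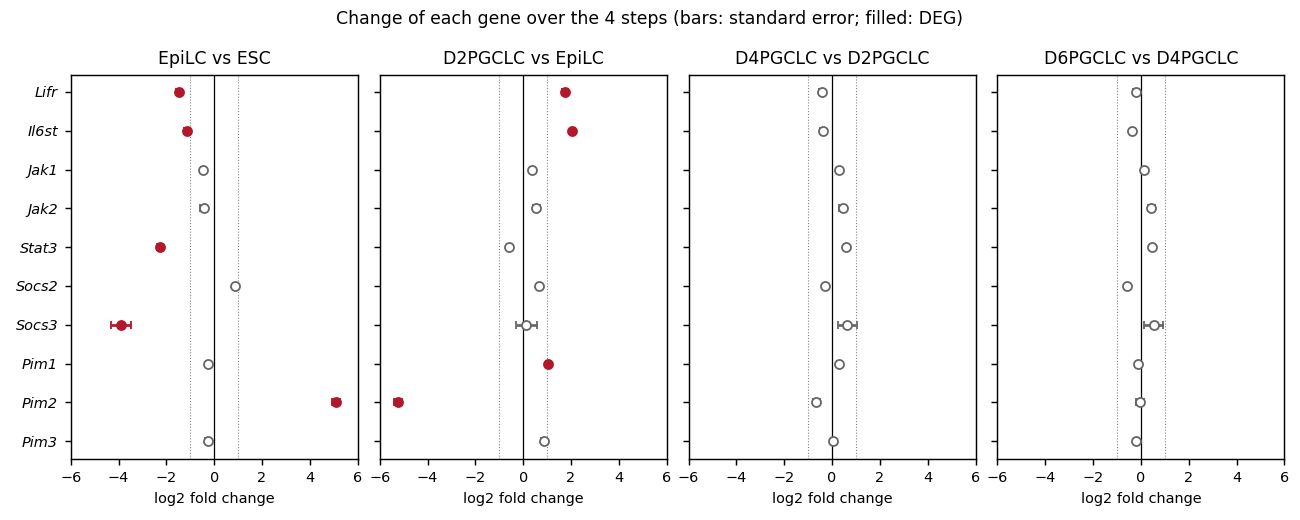
Log2 fold change of each gene at the 4 steps (horizontal axes, first-named group over second), with standard errors as bars, DEGs as filled points and dotted lines at an absolute log2 fold change of 1. Pim2 moves by 5.10 and then by -5.24 in the left panels, and no gene is a DEG in the D4PGCLC vs D2PGCLC or D6PGCLC vs D4PGCLC panel.

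The PIM genes split into Pim2, which marked EpiLCs, and Pim1 and Pim3, which were higher in PGCLCs. Pim2 was at 8.94, 8.72 and 9.72 CPM in ESCs, at 339.7, 307 and 291 in EpiLCs, at 8.30, 9.82 and 6.81 in D2PGCLCs, at 4.73, 6.51 and 4.53 in D4PGCLCs and at 4.57, 6.34 and 4.48 in D6PGCLCs. The EpiLC samples stood far above all the others, whose highest value was 9.82 CPM. Pim2 rose 34.2-fold from ESCs to EpiLCs (5.10 ± 0.16, adjusted p = 1.3e-14) and fell 37.7-fold to D2PGCLCs (-5.24 ± 0.16, adjusted p = 2.09e-14), where it did not differ from ESCs by the test (-0.14 ± 0.15, adjusted p = 0.473). It was lower again in D4PGCLCs than in D2PGCLCs (-0.66, adjusted p = 0.0111), and D6PGCLCs and D4PGCLCs did not differ by the test (-0.02 ± 0.16, adjusted p = 0.942).

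Pim1, the family member classically induced by STAT3, was at 92.6, 79.7 and 96.1 CPM in ESCs, at 70.9, 72.6 and 80.9 in EpiLCs, at 158, 148 and 156 in D2PGCLCs, at 167, 199.9 and 194 in D4PGCLCs and at 184, 161 and 175 in D6PGCLCs. All 9 PGCLC samples were above all ESC and EpiLC samples, which overlapped. Pim1 rose 2.06-fold from EpiLCs to D2PGCLCs (1.04 ± 0.09, adjusted p = 1.91e-08), just past the fold cutoff: with DESeq2, or its size factors in edgeR, the change was 0.99. The highest level, in D4PGCLCs, did not differ from that in D6PGCLCs by the test (0.11 ± 0.09, adjusted p = 0.462). Pim3, a close relative with overlapping function, was at 60.2, 56.0 and 59.5 CPM in ESCs, at 56.8, 42.9 and 46.2 in EpiLCs, at 83.3, 92.6 and 87.5 in D2PGCLCs, at 79.3, 99.8 and 93.6 in D4PGCLCs and at 80.6, 80.4 and 78.6 in D6PGCLCs. Its PGCLC samples were likewise above all ESC and EpiLC samples. It was 1.8-fold higher in D2PGCLCs than in EpiLCs (0.85 ± 0.10, adjusted p = 9.74e-07), below the fold cutoff. In D2PGCLCs, Pim1 and Pim3 thus stood above ESCs (0.78 ± 0.09, adjusted p = 7.78e-07, and 0.58 ± 0.10, adjusted p = 8.06e-05) while Stat3 stood 7.34-fold below (-2.88 ± 0.10, adjusted p = 3.4e-14).

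Per kb of exon, the summed level of the 3 PIM genes was 54.0 ± 3.58 CPM per kb for ESCs and 154 ± 10.4 for EpiLCs, and it was 84.9 ± 0.73, 94.9 ± 9.88 and 86.4 ± 3.07 on PGCLC days 2, 4 and 6 (SD, n = 3). Pim2 made up 6.05% ± 0.26 of that sum in ESCs, 72.5% ± 1.61 in EpiLCs and 3.50% ± 0.61, 1.98% ± 0.31 and 2.14% ± 0.51 on days 2, 4 and 6. Pim1 made up 49.2% ± 1.53 in ESCs, 14.5% ± 1.83 in EpiLCs and between 53.9% and 59.7% in the PGCLC groups. Pim3 made up the remainder, with 13.0% ± 1.12 in EpiLCs and between 38.1% and 44.7% in the other groups. With the longest transcript in place of all exons as the length, the Pim2 share was 76.1% in EpiLCs and between 2.35% and 7.24% elsewhere.

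**Figure D3:**
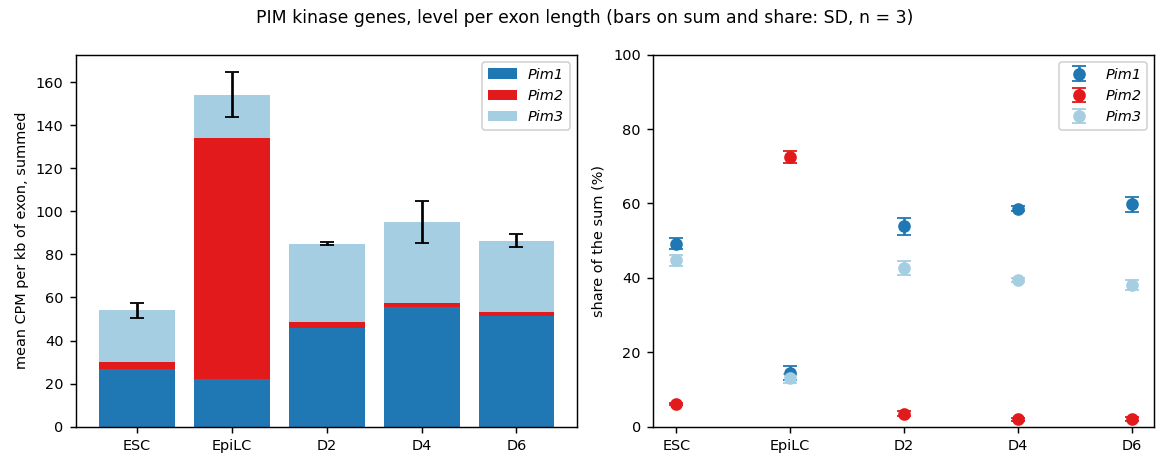
Left, the mean level of Pim1, Pim2 and Pim3 per kb of exon, stacked (vertical axis in CPM per kb, from 0), with the SD of the sum over 3 samples. Right, each gene's share of the sum in percent (mean ± SD, n = 3); Pim2 makes up 72.5% in EpiLCs and at most 6.05% in the other groups, as group means.

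Within the PGCLC course the changes were small. No member was a DEG between D2PGCLCs and D4PGCLCs, where 2.94% of all genes tested were, nor between D4PGCLCs and D6PGCLCs, where 3.08% were. By adjusted p alone, with no fold cutoff, 7 of the 10 genes differed at the first of these steps (Jak1, Stat3 and Pim1 higher, Lifr, Il6st, Socs2 and Pim2 lower), against 11.9% of all genes. At the second step 3 differed (Stat3 higher, Il6st and Socs2 lower), against 12.8%. DESeq2 called no member a DEG at either step. Between D2PGCLCs and D6PGCLCs, 2 were DEGs, Stat3 and Socs3, both higher, against 13.6% of all genes in either direction, 10.9% higher and 2.75% lower. By adjusted p alone 8 of the 10 differed there (37.7% of all genes), leaving Pim1 and Pim3. None of the counts that involve D6PGCLCs changed when D6PGCLC replicate 1 was left out.

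Compared with the naive cells at the start, D2PGCLCs had 3 DEGs among the 10 genes, against 24.3% of all genes tested. Socs2 was higher (background 11.7%), and Stat3 and Socs3 were lower (background 12.7%). D4PGCLCs had 4 against ESCs (background 24.8%), in a comparison added after the data were seen. Socs2 (1.24 ± 0.08) and Pim1 (1.06 ± 0.09, adjusted p = 1.37e-08) were higher (background 13.9%) and Stat3 and Socs3 lower (background 10.9%), and Pim1 was inside the fold cutoff without ESC replicate 2 (0.99). D6PGCLCs had 2 DEGs against ESCs, Stat3 and Socs3, both lower, where 26.2% of all genes were DEGs, 15.8% higher and 10.3% lower. That count was 4 without ESC replicate 3, with Jak2 and Pim1 higher, or without D6PGCLC replicate 2, with Pim1 higher and Pim2 lower. Against EpiLCs, D6PGCLCs had 6 (background 27.9%). Lifr, Il6st, Jak2, Socs3 and Pim1 were higher (background 15.9%) and Pim2 was lower, by 60.5-fold (background 12.0%). These comparisons share the ESC, EpiLC or D6PGCLC samples with the others, so their counts are not independent of one another.

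The rest of the pathway was examined in 8 lists of 49 genes, of which 45 were tested. Il6, Il11, Clcf1 and Osmr were not, with at most 8 counts in any sample. From ESCs to EpiLCs 15 of the 45 were DEGs (background 26.2%), 4 higher (14.4%) and 11 lower (11.9%). From EpiLCs to D2PGCLCs 20 were (background 25.4%), 11 higher (11.0%) and 9 lower (14.4%). At the D4PGCLC and D6PGCLC steps 3 were DEGs each (background 2.94% and 3.08%), 2 higher and 1 lower at the former and 1 higher and 2 lower at the latter. The median log2 fold change of the 45 was -0.30, -0.02, 0.07 and -0.07 at the 4 steps.

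Of the gp130 ligands, Lif itself was at 2.61 ± 0.27 CPM in ESCs, 3.89 ± 0.24 in EpiLCs and 7.16 ± 0.82, 8.47 ± 0.41 and 7.52 ± 1.97 on PGCLC days 2, 4 and 6. It was no DEG at any single step, but was a DEG over ESCs on each of these days (1.45 ± 0.20, adjusted p = 7.56e-06, at day 2, 1.70 ± 0.20, adjusted p = 1.1e-06, at day 4 and 1.52 ± 0.20, adjusted p = 3.79e-06, at day 6). Osm, which encodes oncostatin M, fell from 5.65 ± 0.89 CPM in ESCs to 1.29 ± 0.65 in EpiLCs and returned to 4.30 ± 0.89 in D2PGCLCs. Ctf1, the gene for cardiotrophin, rose from 5.13 ± 0.47 CPM in EpiLCs to 12.4 ± 2.08 in D2PGCLCs and fell from 13.0 ± 2.71 in D4PGCLCs to 4.61 ± 1.88 in D6PGCLCs. Cntf was low throughout, at a mean of at most 0.643 CPM, and was a DEG at the EpiLC to D2PGCLC step, on between 2 and 24 counts a sample. Among the co-receptor genes, Il6ra, the IL-6 binding chain, fell from 22.4 ± 2.28 CPM in ESCs to 0.829 ± 0.26 in EpiLCs (-4.76 ± 0.24, adjusted p = 8.15e-12) and rose only to 3.62 ± 0.57 in D2PGCLCs. Cntfr was higher in EpiLCs, at 4.13 ± 1.13 CPM, than in ESCs at 2.06 ± 0.69 or D2PGCLCs at 0.817 ± 0.21, and Il11ra1 rose from 1.25 ± 0.40 CPM in ESCs to 2.88 ± 0.54 in EpiLCs.

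Jak3, the kinase of the cytokine receptors that use the common gamma chain, had larger fold changes at the first 2 steps than Jak1 or Jak2. It fell from 86.8 ± 7.54 CPM in ESCs to 3.36 ± 0.28 in EpiLCs (-4.69 ± 0.20, adjusted p = 6.06e-13) and rose to 43.3 ± 9.64 in D2PGCLCs (3.68 ± 0.19, adjusted p = 1.75e-11), and Tyk2 was no DEG at any step. Of the 6 other STAT genes, Stat5b fell with Stat3, from 22.0 ± 1.21 CPM in ESCs to 3.26 ± 0.81 in EpiLCs (-2.75 ± 0.20, adjusted p = 1.75e-09). Stat4, which acts downstream of IL-12, had 0.259 ± 0.04 CPM in ESCs, rose to 4.10 ± 0.31 in EpiLCs and rose again to 11.3 ± 1.25 in D2PGCLCs.

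Of the 6 other SOCS genes, none was a DEG from ESCs to EpiLCs by edgeR (background 26.2%). By adjusted p alone 1 was higher and 2 were lower, where 4762 were higher and 4733 lower of all 18090 genes tested. From EpiLCs to D2PGCLCs Socs1, like Socs3 a direct JAK inhibitor, fell from 5.68 ± 0.87 to 1.28 ± 0.29 CPM and Socs5 rose from 4.50 ± 0.62 to 10.2 ± 1.23 CPM. Of the 7 genes for PIAS proteins and phosphatases, which restrain STAT activity, 1 was a DEG at any of the 4 steps, at the step from EpiLCs to D2PGCLCs, where 25.4% of all genes were. That was Ptpn6, the gene for the phosphatase SHP-1, from 29.0 ± 2.83 CPM in EpiLCs to 79.3 ± 46.8 in D2PGCLCs, where single samples ran from 47.3 to 133 CPM.

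The list of LIF-STAT3 target genes of ESCs gave 6 DEGs among its 9 genes from ESCs to EpiLCs (background 26.2%), 5 lower and 1 higher, and 7 from EpiLCs to D2PGCLCs (background 25.4%), 3 higher and 4 lower. Tfcp2l1, Klf4 and Klf5, which encode transcription factors of naive pluripotency, and Bcl3, which encodes a co-factor of NF-kB, led the list. Klf4 went with Stat3, from 173 ± 3.48 CPM in ESCs to 16.2 ± 1.92 in EpiLCs (-3.41 ± 0.15, adjusted p = 1.22e-12), to 5.99 ± 0.39 in D2PGCLCs (-1.44 ± 0.15, adjusted p = 2.98e-07), to 12.6 ± 1.90 in D4PGCLCs (1.08 ± 0.15, adjusted p = 0.000278) and to 19.1 ± 4.34 in D6PGCLCs. Klf5 and Tfcp2l1 fell likewise from ESCs to EpiLCs (173 ± 18.1 to 19.0 ± 4.02 CPM, and 685 ± 25.7 to 22.5 ± 2.60 CPM), but rose to 132 ± 21.5 and 131 ± 11.2 CPM in D2PGCLCs, where Stat3 was at its lowest. Bcl3 fell from 32.6 ± 2.59 to 0.803 ± 0.08 CPM (-5.34 ± 0.25, adjusted p = 3.02e-12) and rose to 2.65 ± 0.42 CPM in D2PGCLCs. In D6PGCLCs 5 of the 9 target genes were DEGs against ESCs (background 26.2%), all lower. They were Klf4, Tfcp2l1, Bcl3, Gbx2 and Myc, and Klf5 was no longer among them (-0.66 ± 0.14, adjusted p = 0.000522), while the Myc means were 22.1 ± 1.36 CPM (ESCs), 36.6 ± 3.63 CPM (EpiLCs) and 2.10 ± 1.65 CPM (D6PGCLCs). The median log2 fold change of the list was then -2.01, against 0.00 over all genes tested.

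Among the 8 genes whose products are PIM substrates, 2 were DEGs at each of the first 2 steps, a share near the background of 26.2% and 25.4%. Cdkn1a, the gene for the cell-cycle inhibitor p21, fell from 157 ± 13.3 CPM in ESCs to 45.1 ± 7.77 in EpiLCs (-1.80 ± 0.14, adjusted p = 2.17e-09) and to 16.3 ± 3.13 in D2PGCLCs (-1.46 ± 0.14, adjusted p = 6.42e-08). Bad, which encodes a pro-apoptotic BCL2-family protein, fell from 16.3 ± 0.96 CPM in ESCs to 7.36 ± 0.37 in EpiLCs and rose to 14.9 ± 2.81 in D2PGCLCs. None of the 8 was a DEG at the D4PGCLC or D6PGCLC step by edgeR. By adjusted p alone, 2 were higher and 1 lower at the former (background 11.9%) and 2 were higher at the latter (background 12.8%).

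**Figure D4:**
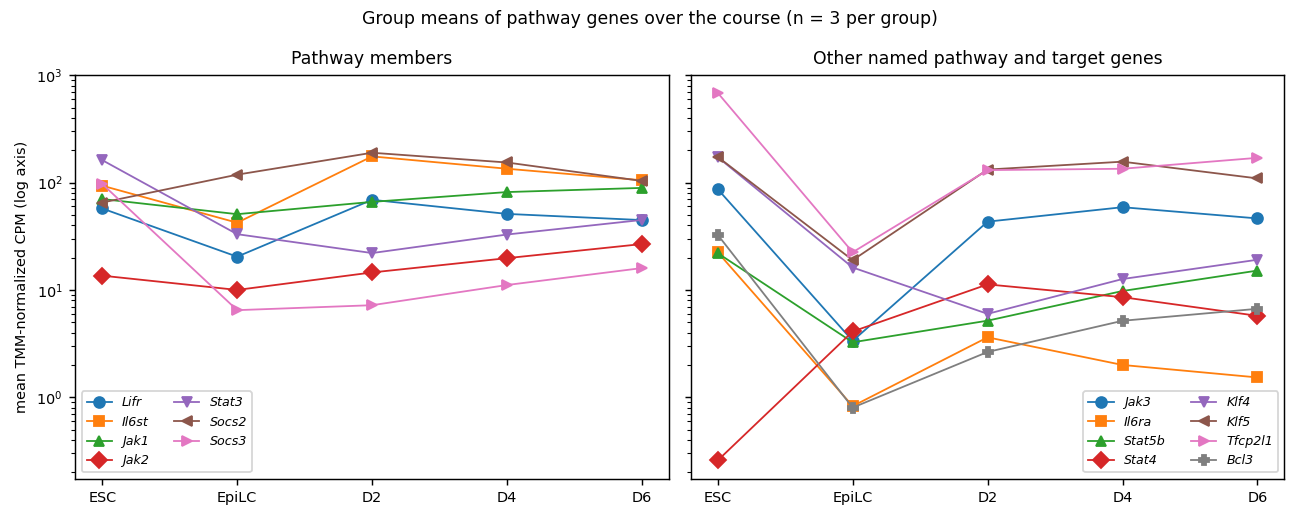
Mean TMM-normalized CPM (log vertical axis, n = 3 per group) of the 7 receptor, JAK, STAT3 and SOCS members on the left and of 8 other named pathway and target genes on the right, from ESCs to D6PGCLCs. Stat3 and Klf4 are lowest in D2PGCLCs, at 22.1 and 5.99 CPM, whereas Lifr, Il6st, Jak3, Klf5 and Tfcp2l1 dip in EpiLCs and are higher again in D2PGCLCs.

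The genes most like each member that was a DEG at a step were ranked by the Pearson correlation of log2(CPM + 1) over the 15 samples, among 9174 tested genes with a mean of at least 10 CPM. Samples of a group share their group mean, so these values describe 5 group levels. Stat3 was closest to Klf4 (r = 0.991, rho = 0.925), Crxos (0.984, 0.936) and Sat1 (0.981, 0.879), and each of these was high in ESCs. Sat1, which encodes a polyamine acetyltransferase, was at 108 ± 3.65 CPM in ESCs and 19.1 ± 2.27 in D2PGCLCs. Socs3 was closest to Pdia5 (0.980, 0.943), Klhl22 (0.972, 0.921) and Aldh1l1 (0.970, 0.914). Aldh1l1, the gene of a folate enzyme, went from 49.6 ± 1.97 CPM in ESCs to 4.80 ± 1.36 in D2PGCLCs.

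Lifr was closest to Arid5b (0.980, 0.957), Zfp715 (0.976, 0.989) and Kdm3b (0.969, 0.911). Il6st was closest to Atg13 (0.991, 0.943), Mov10 (0.989, 0.993) and Mybl2 (0.982, 0.954). Mov10, which encodes an RNA helicase that restrains retrotransposons, was at 76.6 ± 6.49 CPM in EpiLCs and 373 ± 21.4 in D2PGCLCs, then at 282 ± 28.5 and 219 ± 24.8 in D4PGCLCs and D6PGCLCs. Pim1 was closest to Hdac5 (0.992, 0.943), Hbegf (0.988, 0.954) and H2-Bl (0.987, 0.946), of which H2-Bl belongs to the MHC class I family, whose members can share reads. Hbegf, the gene for an EGF-family ligand, had its lowest mean in EpiLCs (3.82 ± 0.60 CPM) and its highest in D6PGCLCs (25.2 ± 2.45 CPM).

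Pim2 was closest to Mmp25 (0.990, 0.689), Slc5a4b (0.989, 0.868) and Cdkn1c (0.989, 0.736), which were all high in EpiLCs and low elsewhere. Cdkn1c, the imprinted gene for the cell-cycle inhibitor p57, was at 70.2 ± 9.95 CPM in EpiLCs and at means of 1.25 to 2.61 in the other groups. Mmp25, a membrane-bound metalloprotease gene, was at 68.0 ± 7.55 CPM in EpiLCs and at means of 0.423 to 1.12 elsewhere.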

How the data were processed

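RNA-seq libraries of 15 samples were made by the authors with TRIzol and NEBNext Ultra II Directional kits. Per the labels, reads were mapped to mm10 with ENSEMBL annotation, and the submitters' processing notes name Trim Galore, FastQC and STAR. The counting tool, annotation release and strand setting are not given in the sources used here. The deposited values are raw counts per gene, with all 55536 identifiers found in GENCODE M21. The study's own analysis names DESeq2.

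Counts were filtered with filterByExpr (minimum count 10), TMM-normalized and fitted in edgeR 4.0.16 (limma 3.58.1, R 4.3.3) with a quasi-likelihood model of all 15 samples and 1 coefficient per group. P-values were adjusted by the Benjamini-Hochberg method over 18090 genes. DEGs were genes that passed both an adjusted p of 0.05 and a log2 fold change of 1 in size. CPM are counts scaled to TMM-normalized library sizes. CPM per kb divides by the merged exon length. SE is the log2 fold change divided by the root of F. DESeq2 1.42.0 was an alternative test. The code was tested on simulated data. Replicate numbers came from the sample titles. Named genes were the 10 members, in each list up to 4 DEGs with the largest change at the 4 steps, and, for each member that was a DEG at a step, the 3 genes with the highest correlation. A gene that this rule names is not reported here. Single marker genes named after their values were seen are Pecam1, Ptprc, Cdh5, Runx1, Gata6, T, Dppa3, Dnmt3b, Tbx3, Zfp42, Esrrb, Nr0b1, Nanos3, Dnd1, Itgb3 and Kit. Lif, Tyk2, Gbx2 and Myc were named likewise. The members and all gene lists were chosen with earlier results of these data known. Alternatives were the low-count filter, size factors, a fit of only the groups compared, a replicate block, no fold cutoff, and leaving out each sample. Library totals set only counting precision.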

Additional observations from a re-analysis of the deposited data

How the results depend on the processing

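The number of DEGs among the 10 members changed by more than 1.5 times in few settings. DESeq2 gave 1 in place of 2 for D6PGCLC vs D2PGCLC, since Socs3 was lost. Without a fold cutoff the counts were 10 for EpiLC vs ESC, 9 for D2PGCLC vs EpiLC, 7 for D4PGCLC vs D2PGCLC, 3 for D6PGCLC vs D4PGCLC, 8 for D6PGCLC vs D2PGCLC, 6 for D2PGCLC vs ESC, 9 for D6PGCLC vs ESC, 10 for D6PGCLC vs EpiLC and 9 for D4PGCLC vs ESC, the comparison added after the data were seen. Leaving out 1 sample at a time, the counts ran from 4 to 5, 4 to 4, 0 to 0, 0 to 1, 1 to 2, 3 to 3, 2 to 4, 5 to 6 and 3 to 4 in the same order. Over all 18090 genes tested, 4762 were higher and 4733 lower by adjusted p alone for EpiLC vs ESC. These counts were 4919 and 4707 for D2PGCLC vs EpiLC and 5465 and 4922 for D6PGCLC vs EpiLC. Against ESCs they were 4633 and 4237 for D2PGCLCs, 4873 and 4320 for D4PGCLCs and 5019 and 4702 for D6PGCLCs. The share was 11.9% for D4PGCLC vs D2PGCLC, 12.8% for D6PGCLC vs D4PGCLC and 37.7% for D6PGCLC vs D2PGCLC. The count of 4 for D6PGCLC vs ESC came without ESC replicate 3 or D6PGCLC replicate 2, where genes near the fold cutoff crossed it (Jak2 and Pim1 at 1.01 and 1.02, Pim1 and Pim2 at 1.00 and -1.02). Signs turned only for differences that did not pass the test. With 1 sample left out, Socs3 ran from -0.40 (without D2PGCLC replicate 2) to 0.45 for D2PGCLC vs EpiLC, and from -0.091 (without D4PGCLC replicate 2) to 1.18 for D4PGCLC vs D2PGCLC. Pim3 for D4PGCLC vs D2PGCLC ran from -0.023 (without D4PGCLC replicate 2) to 0.14. Pim2 for D6PGCLC vs D4PGCLC ran from -0.22 to 0.16 (without D4PGCLC replicate 2), and was also above 0 without D6PGCLC replicate 1 (0.055) or 3 (0.058). The causes were not tested beyond the samples left out.

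Whether the replicate numbers pair the samples stayed unclear. Deviations from the group means of same-numbered samples had a mean correlation of 0.07 (lowest -0.18, above 0.1 in 8 of 30 pairs). For samples with other numbers it was -0.035 (above 0.1 in 4 of 60 pairs), and 8 of 15 samples correlated best with their own number. With a replicate block the counts of DEGs among the members were 5, 4, 0, 0, 2, 3, 2, 6 and 4 in the order above, and no member's call changed.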
